A study of Mus musculus with 4 samples.

Results

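CD103-positive tumor regulatory T cells were taken as the cells with at least 1 unique molecular identifier (UMI, one counted RNA molecule) of each of Foxp3, Cd4 and Itgae and fewer than 2 UMIs of Mki67 and Top2a together, so that dividing cells were left out. The members were 415 cells of the WT library and 437 of the VISTA-KO library, 852 of 20170 cells past filters of 600 or more detected genes and under 30% of UMIs from mitochondrial genes. Both libraries came from CD4+ and CD8+ T cells enriched and sorted from B16 melanomas, a mouse tumor line that grows after transplantation. The WT tumors grew in Vsir fl/fl littermates and the VISTA-KO tumors in Vsir fl/fl CD4-Cre mice, in which Cre under the Cd4 promoter is meant to delete the VISTA gene in T cells that pass through the CD4-expressing thymic stage, regulatory T cells included. Mice of both genotypes had been given a TRP2 peptide vaccine with TLR agonists together with an antibody that blocks CTLA-4. The tumors of several mice were pooled into 1 library per genotype, so no comparison had a replicate, no test was made, and the intervals below are 95% intervals of counting error only.

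Regulatory T cells restrain other immune cells and depend on the transcription factor Foxp3. CD103 is the alpha-E integrin chain, encoded by Itgae. It pairs with the beta-7 chain, encoded by Itgb7, binds E-cadherin on epithelial cells, and is induced by TGF-beta in T cells that settle in tissues. In regulatory T cells it is known as a mark of activated effector cells, which often also carry KLRG1 or the interleukin-33 receptor ST2.

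The members held 3935613 UMIs in WT and 3089798 in VISTA-KO, with a median of 7549 and 5943 UMIs per cell. They were set against the other 1113 WT and 833 VISTA-KO cells with Foxp3 and Cd4 UMIs. Because these included dividing cells, the members were also set against the 698 and 661 non-dividing cells with Foxp3 and Cd4 UMIs and no Itgae UMI, called CD103-negative below. CD103-negative cells were shallower, with a median of 6511 UMIs in WT and 5307 in VISTA-KO. The libraries shared 145 cell barcodes, of which 8 in each library belonged to members. Only 2 barcodes were members in both libraries, and neither pair had the same T cell receptor clonotype.

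Vsir, the targeted gene, on chromosome 10 of GRCm38.p6 from 60346851 to 60430294, stood at 127 CPM (UMIs of the gene scaled to a total of 1000000) in WT members and 123 CPM in VISTA-KO members, a ratio of 0.964 (0.841 to 1.10). In CD103-negative cells it stood at 131 and 126 CPM. The tables count UMIs over the whole gene and the deleted exons are not given in the sources used here, so this level did not check the genotype, and VISTA-KO below means the library labelled so.

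The regulatory T cell label was checked with genes that the rule did not use. Ctla4, the inhibitory receptor, stood at 949 CPM in WT members and 1230 CPM in VISTA-KO members, against 230 and 238 CPM in cells with Cd4 UMIs and no Foxp3 or Cd8 UMIs. Il2ra, the high-affinity interleukin-2 receptor chain CD25, stood at 172 and 270 CPM against 20.5 and 27.3 CPM. Ikzf2, the factor Helios, stood at 503 and 623 CPM against 78.9 and 78.1 CPM. Ikzf4, Tnfrsf18 and Izumo1r were also higher in the members than in those cells in both libraries, while Nrp1 was lower in both, at 53.4 against 74.7 CPM in WT and 69.6 against 74.1 CPM in VISTA-KO. The sort took CD4+ and CD8+ cells together, and Cd8a and Cd8b1 were not absent from the members. They stood at 316 and 474 CPM in WT members and 168 and 218 CPM in VISTA-KO members. Cells with Cd8 and no Foxp3 or Cd4 UMIs had 1092 and 1579 CPM in WT and 1046 and 1428 CPM in VISTA-KO. At least 2 UMIs of these genes together were held by 36.4% of WT and 17.4% of VISTA-KO members. The shares of CD103-negative cells were 31.1% and 15.1%.

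CD103-positive cells made up 27.2% (24.9 to 29.5) of the 1528 cells with Foxp3 and Cd4 UMIs in WT and 34.4% (31.8 to 37.1) of 1270 in VISTA-KO. Dividing cells, which the rule leaves out of the members, were 27.2% of these cells in WT and 13.5% in VISTA-KO. Among non-dividing cells alone the shares were 37.3% (34.4 to 40.2) and 39.8% (36.9 to 42.8), and their intervals overlapped. Of the dividing cells, 44.1% in WT and 41.9% in VISTA-KO held an Itgae UMI. Dividing cells were deeper, with medians of 18280 and 11943 UMIs against 6968 and 5538.5 in non-dividing cells. Their Itgae values at equal depth are given below. Since WT cells were deeper, 2000 UMIs were drawn at random from each cell (thinning), shallower cells were left out and the members were chosen again. The shares were then 19.4% (15.9 to 23.2), 93 of 480 cells, in WT and 25.2% (21.6 to 29.2), 134 of 531 cells, in VISTA-KO. Among the non-dividing cells so chosen they were 20.1% (16.5 to 24.0) and 25.9% (22.1 to 29.9), so the VISTA-KO value was the higher with either denominator and the intervals overlapped. Dividing cells were then 3.54% (2.08 to 5.61) of the cells in WT and 2.45% (1.31 to 4.15) in VISTA-KO, and these intervals overlapped too.

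Itgae, on chromosome 11 from 73090505 to 73147449, stood at 91.4 CPM (87.0 to 95.8) over the cells with Foxp3 and Cd4 UMIs in WT and at 149 CPM (141 to 157) in VISTA-KO. After thinning, 16.3% of these cells in WT and 21.9% in VISTA-KO held an Itgae UMI. Among the non-dividing ones alone the level was 111 CPM in the WT library and 167 CPM in the VISTA-KO library, and the thinned share 17.1% (14.9 to 19.5) and 22.9% (20.4 to 25.5). Dividing ones lay lower, at 69.7 and 92.7 CPM. Their thinned shares were 13.9% (10.7 to 17.6) and 16.0% (10.8 to 22.4), with intervals that overlapped those of non-dividing cells. Cells with at least 2 UMIs of Siglech, a plasmacytoid dendritic cell marker, served as the background. They were not free of Foxp3 RNA, with a UMI in 5.46% and 2.19% of cells after thinning. They held an Itgae UMI in 1.82% and 1.46% of cells after thinning, with median depths of 9181 and 9485.5 UMIs against 8838.5 and 5939 UMIs in the cells with Foxp3 and Cd4 UMIs. Cells with Cd4 and no Foxp3 or Cd8 UMIs held one in 4.59% and 3.4% of cells, and cells with Cd8 and no Foxp3 or Cd4 UMIs in 2.09% and 4.35%. The cells with Foxp3 and Cd4 UMIs had the highest share in both libraries, and the share in Cd8 cells of VISTA-KO was above the share in Cd8 cells of WT.

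A single Itgae UMI chose 38.1% of the WT members and 37.5% of the VISTA-KO members. Cells just inside this limit, with 1 UMI, numbered 158 and 164, and those just outside it, with none, 698 and 661. At the limit on dividing cells, 113 and 123 members had 1 UMI of Mki67 and Top2a together, while 67 and 29 cells with Itgae UMIs were left out at 2 UMIs. The summed level of the 18 genes on a list for cell division was 2046 and 2137 CPM in the former, 2330 and 1869 CPM in the latter, and 6985 and 7188 CPM in the 116 and 43 cells with 3 or more.

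Against all other cells with Foxp3 and Cd4 UMIs, the members had more of 15 genes by at least 1.5-fold in both libraries, which was 0.23% of the 6520 genes with at least 20 CPM in any sum, and less of 126 genes, which was 1.93%. Fold limits were applied to log2 ratios after adding 5 CPM to each level. The lower genes included 16 of the 18 division genes, which the rule on Mki67 and Top2a had in effect chosen against, and 3 of 5 measured macrophage genes, Apoe, C1qb and Lyz2, none of which stayed lower without marked doublets. The higher genes were Ltb4r1, Il1rl1, Klrg1, Anxa1, Actn2, Cxcl2, Gzmb, Sytl1, Ncmap, Sema4b, Ccr3, Ccr10, Socs2, Cpm and Ly6d. None of the 15 stayed past the limit in all of 11 alternatives, and Gzmb did in 6. Because the same cells were chosen on their Itgae counts, this and the next comparison are descriptions and not tests.

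Against CD103-negative cells, 8 of 6446 genes were higher by at least 1.5-fold in both libraries (0.124%) and 1 was lower (0.0155%). Of the 15 genes above, 6 were among them, namely Ltb4r1, Il1rl1, Klrg1, Anxa1, Actn2 and Cxcl2, and Il2ra and Ifitm1 joined them. The lower gene was Lilrb4a. Within WT alone 23 genes were higher and 16 lower, and within VISTA-KO alone 41 were higher and 41 lower, so most genes past the limit in one library were not past it in the other.

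Klrg1, an inhibitory receptor that binds cadherins, the same family as the ligand of CD103, was the most abundant of the 6. It stood at 192 CPM in WT members and 95.5 CPM in WT CD103-negative cells, a ratio of 2.01 (1.79 to 2.25), and VISTA-KO had 251 and 146 CPM, a ratio of 1.72 (1.54 to 1.91). After thinning, a Klrg1 UMI was found in 23.4% of members and 12.7% of CD103-negative cells in WT and in 28.3% and 16.6% in VISTA-KO. When the members were chosen after thinning, its log2 ratio was 1.16 in WT but 0.31 in VISTA-KO, not past the limit. Siglech cells held one in 2.27% and 1.46%.

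Il1rl1 encodes ST2, the receptor for interleukin-33, an alarm cytokine released from damaged tissue. It stood at 19.8 CPM in WT members against 6.92 CPM in CD103-negative cells, a ratio of 2.86 (1.93 to 4.32), and VISTA-KO had 39.2 against 21.7 CPM, a ratio of 1.81 (1.37 to 2.40). Its WT log2 ratio of 1.06 was 0.55 without cells marked by the planned doublet rule, which is not past the limit. Its UMIs were few, with 46 WT and 86 VISTA-KO members holding any. After thinning, Klrg1 was found in 46.2% of the 13 WT members and 44.4% of the 36 VISTA-KO members that held Il1rl1, against 22.6% and 26.8% of the others. CD103-negative cells with Il1rl1 went the same way, with 22.2% of 9 WT and 34.4% of 32 VISTA-KO cells, against 12.5% and 15.7%.

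Ltb4r1, the high-affinity receptor for the lipid chemoattractant leukotriene B4, stood at 41.7 against 18.1 CPM in WT, a ratio of 2.30 (1.79 to 2.98), and VISTA-KO had 44.7 against 21.0 CPM, a ratio of 2.13 (1.62 to 2.82). Dividing cells were close to CD103-negative cells, at 17.9 and 22.3 CPM. Anxa1, a phospholipid-binding protein with anti-inflammatory activity, stood at 35.8 against 19.7 CPM in WT and 41.8 against 19.5 CPM in VISTA-KO. As deposited, an Anxa1 UMI was held by 16.1% of members and 9.46% of CD103-negative cells in WT and by 15.6% and 7.56% in VISTA-KO. After thinning, the WT shares were 3.98% (2.29 to 6.38) and 4.02% (2.67 to 5.80), so the gap in cells was not detectable at that depth, and the VISTA-KO shares were 8.02% and 3.67%.

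Il2ra stood at 172 against 110 CPM in WT and 270 against 178 CPM in VISTA-KO, ratios of 1.56 (1.40 to 1.75) and 1.52 (1.37 to 1.67). This was just past the limit in both libraries. After thinning, an Il2ra UMI was held by 26.6% of WT and 36.1% of VISTA-KO members. Dividing cells held one in 23.2% and 29.0%, and CD103-negative cells with an Il1rl1 UMI in 37.9% and 28.8%. Actn2, an actin-crosslinking protein best known from muscle, stood at 17.02 against 9.59 CPM and 24.3 against 13.1 CPM, and stayed past the limit in only 6 of 12 alternatives, with log2 ratios of 0.31 and 0.26 after thinning. Cxcl2, a chemokine for neutrophils, was held by 18 WT and 16 VISTA-KO members only, and 5 cells carried 81.8% and 65.2% of its UMIs. Its direction turned in WT after thinning and in VISTA-KO without marked doublets, with log2 ratios of -0.78 and -0.42. Ifitm1, an interferon-induced membrane protein, came from 5 WT and 10 VISTA-KO members, so that its ratios of 3.82 and 2.13 describe a few cells. Lilrb4a, an inhibitory receptor best known from myeloid cells, stood at 41.7 against 69.9 CPM in WT and 57.0 against 95.02 CPM in VISTA-KO, ratios of 0.596 (0.494 to 0.717) and 0.60 (0.499 to 0.718).

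**Figure D1:**
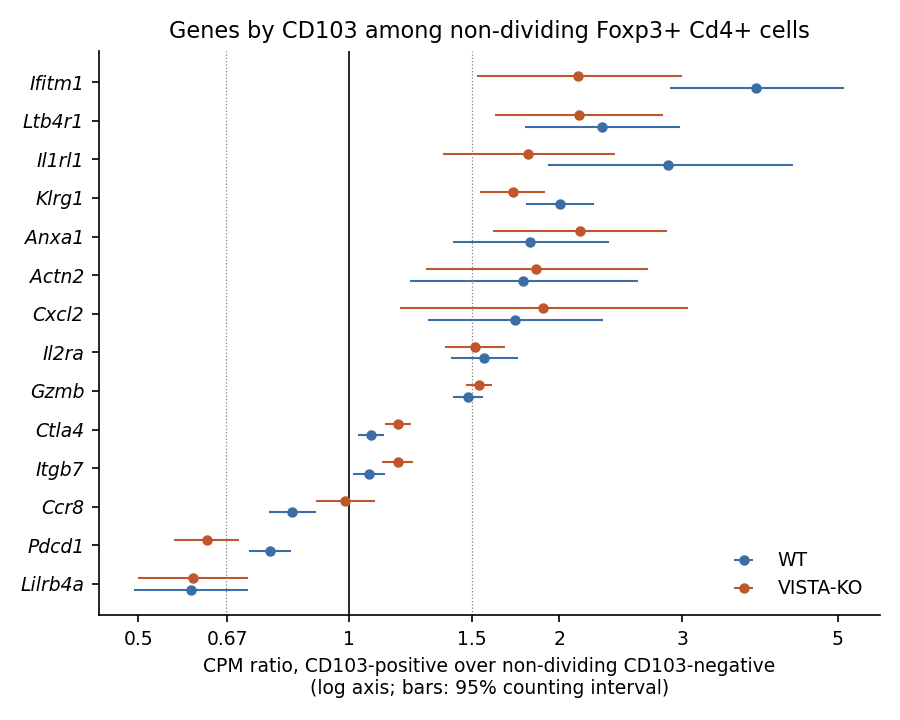
CPM ratio of CD103-positive over non-dividing CD103-negative cells on a log axis for the 9 genes past 1.5-fold in both libraries and 5 others, with WT in blue, VISTA-KO in orange, bars for the 95% counting interval and dotted lines at 1.5-fold. Both libraries lie past a dotted line for the upper 8 genes and for Lilrb4a, while Gzmb lies at it with 1.48 and 1.54 and Ctla4 and Itgb7 lie nearer to 1.

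These genes did not all follow the Itgae count in the same way. Non-dividing cells were split into those with 0, 1, 2 and at least 3 Itgae UMIs. The genes had been chosen for a difference by the same counts, so this too is a description and not a test. Klrg1 was already higher at 1 Itgae UMI, at 172 CPM (WT) and 218 CPM (VISTA-KO). It stood at 184 and 276 CPM at 2 UMIs and at 215 and 263 CPM at 3 or more. The intervals at 2 and at 3 or more overlapped in both libraries, with 236 to 321 and 237 to 291 CPM in VISTA-KO. Ltb4r1 went from 25.8 and 30.5 CPM at 1 UMI to 50.1 and 58.3 CPM at 3 or more. Anxa1 stood at 20.6 and 21.7 CPM at 1 UMI, close to CD103-negative cells, at 30.6 and 27.6 CPM at 2 UMIs and at 53.5 and 61.8 CPM at 3 or more. Il1rl1 had no steady order in WT, with 22.1, 10.2 and 24.7 CPM at 1, 2 and 3 or more.

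**Figure D2:**
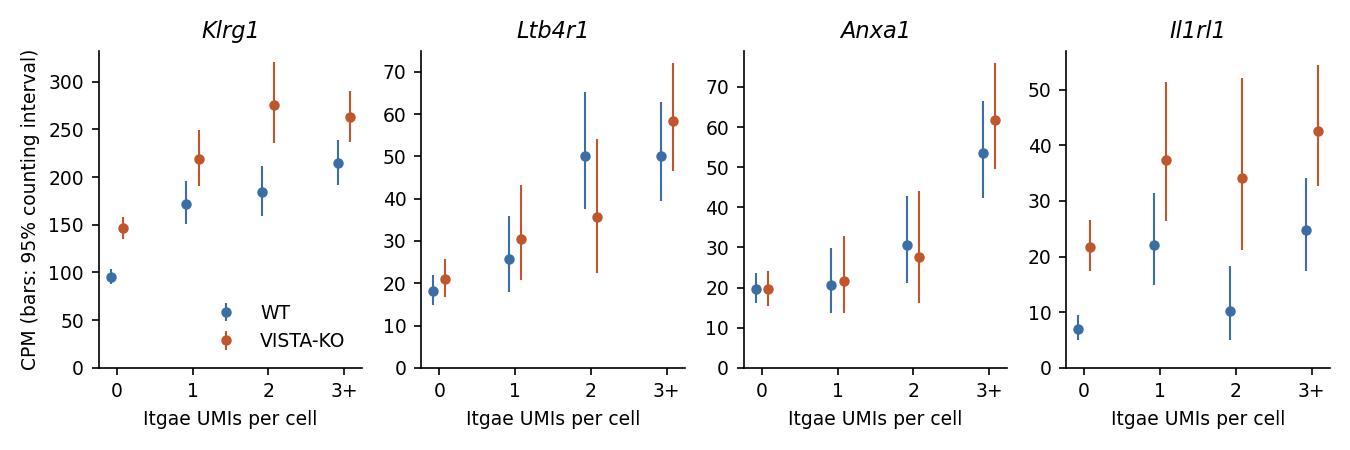
CPM of Klrg1, Ltb4r1, Anxa1 and Il1rl1 (one panel each, vertical axis from 0) in non-dividing cells with 0, 1, 2 and 3 or more Itgae UMIs, WT in blue and VISTA-KO in orange, with 95% counting intervals. Anxa1 is highest in the last group of both libraries, at 53.5 and 61.8 CPM, while Klrg1 is above the group without Itgae from 1 UMI on.

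Itgb7, the partner chain of CD103, was not past the limit. It stood at 628 CPM in members and 588 CPM in CD103-negative cells of WT, and at 872 and 743 CPM in VISTA-KO, ratios of 1.07 and 1.17. None of the 10 integrin genes measured, that is with at least 20 CPM in any sum, was past 1.5-fold in both libraries. Of all genes, 0.124% were past it upward and 0.0155% downward. Itga4, the alpha-4 chain that also pairs with beta-7, stood lower, at 128 against 168 CPM in WT and 92.2 against 173 CPM in VISTA-KO.

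With a limit of 1.25-fold in both libraries, added after the values were seen, 41 genes were higher (0.636%) and 28 lower (0.434%). Among the higher genes were Gzmb, the cytotoxic protease granzyme B, at 834 against 563 CPM in WT and 1497 against 974 CPM in VISTA-KO, and Lmna, the nuclear lamin A, at 213 against 142 CPM and 283 against 150 CPM. After thinning, Gzmb was found in 50.5% of members and 34.7% of CD103-negative cells in WT and in 60.1% and 37.7% in VISTA-KO, against 7.73% and 8.03% of Siglech cells. Dividing cells lay between members and CD103-negative cells, at 44.4% and 46.8%. So did the CD103-negative cells with an Il1rl1 UMI, at 44.8% and 43.9%. Among the lower genes were Pdcd1, the inhibitory receptor PD-1, at 319 against 414 CPM and 160 against 255 CPM, and Itga4. Lmna, Ifitm1, Lilrb4a, Sytl1, Ncmap, Sema4b and Socs2 lie outside the rule for named genes and were chosen after their values were seen.

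Chemokine receptors were among the genes between the limits. None of the 14 measured passed 1.5-fold in both libraries, where 0.124% of all genes did so upward. At 1.25-fold 3 passed upward, namely Ccr2, Ccr3 and Ccr6, against 0.636% of all genes. Ccr2, which draws cells toward CCL2, stood at 319 against 218 CPM in WT and 384 against 282 CPM in VISTA-KO. After thinning, a Ccr2 UMI was held by 41.8% of WT and 46.9% of VISTA-KO members. CD103-negative cells with an Il1rl1 UMI, 30 and 70 cells before thinning, held one in 48.3% and 56.1%. Ccr3 stood at 18.6 against 7.46 CPM and 47.3 against 32.6 CPM. Ccr10, which draws cells toward skin, differed in VISTA-KO, at 26.5 against 7.14 CPM, and less in WT, at 9.40 against 6.57 CPM. Ccr8, known from tumor regulatory T cells, stood at 262 against 316 CPM and 229 against 232 CPM.

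Genes known for regulatory T cells were counted by list. Of all 6446 genes, 0.124% passed 1.5-fold upward by CD103 and 0.0155% downward. A short list with no passing gene therefore cannot be told apart from all genes by this count. Of 10 measured genes of regulatory T cell identity, 1 was past 1.5-fold upward (Il2ra) and none downward, with median log2 ratios of 0.04 in WT and 0.05 in VISTA-KO. Over all 6446 genes both medians were 0.01. Of 15 genes of tissue and effector regulatory T cells, 2 were higher (Il1rl1 and Klrg1), with medians of 0.08 and 0.19. The others included Gata3, the factor that drives ST2, at 96.1 against 92.5 CPM and 117 against 122 CPM, and Areg, the tissue repair growth factor amphiregulin. Areg stood at 252 against 124.8 CPM in WT but at 603 against 557 CPM in VISTA-KO.

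None of 17 measured genes of the TGF-beta pathway passed 1.5-fold, where 0.124% of all genes did so upward. Of the 17, 11 lay higher and 2 lower in both libraries, with medians of 0.06 and 0.10, against 0.01 over all genes. The same-direction count over all genes is not given here, so no pattern is read from these counts. Smad7, a feedback inhibitor of the pathway, stood at 189 against 160 CPM in WT and 267 against 198 CPM in VISTA-KO. Pmepa1, another inhibitor that TGF-beta induces, stood at 133 against 109 CPM and 155 against 115 CPM. Of 11 genes of tissue residency none passed 1.5-fold. Cd69 stood at 439 against 364 CPM and 578 against 513 CPM, and Cxcr6 at 256 against 252 CPM and 189 against 170 CPM. No gene passed among 11 of resting regulatory T cells, 7 of tissue egress, 15 of suppression, 9 co-stimulatory receptors of the TNF receptor family and their partners, 13 T helper factors, 7 cytokines, 13 genes of the T cell receptor response, 9 AP-1 genes, 11 heat shock genes, 16 interferon-stimulated genes or 12 measured division genes. Of 17 cytokine receptors, 2 passed (Il2ra and Il1rl1).

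Markers of other cells stood beside these values. In WT the 10 CD8 T cell markers summed to 7450 CPM in members and 7961 CPM in CD103-negative cells, and in VISTA-KO to 4671 and 5278 CPM. The 12 markers of conventional dendritic cells summed to 2339 and 2201 CPM in WT and to 1285 and 816 CPM in VISTA-KO, with Cd74 the most abundant. The macrophage list summed to 375 and 490 CPM in WT and to 355 and 308 CPM in VISTA-KO. The gamma-delta and type 17 list summed to 24.9 and 7.10 CPM in WT and to 71.5 and 40.5 CPM in VISTA-KO. Its most abundant gene in members, Il17a, came from 3 WT and 12 VISTA-KO members. The NK cell list lay the other way, at 442 and 520 CPM in WT and 184 and 188 CPM in VISTA-KO. The list for plasmacytoid dendritic cells summed to 768 and 779 CPM in WT and to 574 and 558 CPM in VISTA-KO. Of its 9 measured genes 1 lay higher and 3 lower in both libraries. Its gene Ly6d stood at 59.5 against 47.4 CPM in WT and 51.8 against 10.0 CPM in VISTA-KO. Ly6d was held by only 10 and 5 members, of which 5 cells carried 92.3% and 100% of its UMIs. The part of such RNA in the differences by CD103 was not tested beyond the counts without marked cells given at the end.

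The genotypes were then compared within the members. Of 6264 genes, 111 were at least 1.5-fold higher in VISTA-KO (1.77%) and 111 lower (1.77%). CD103-negative cells gave the same direction for 109 of the higher genes and 100 of the lower genes, and 57 and 58 passed 1.5-fold there too. These counts over all genes are not given here, and both kinds of cell came from the same libraries. No pattern is therefore read from them. The 8 highest and 8 lowest described first are those with the same direction in both kinds of cell.

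The highest ratios included genes that respond to the T cell receptor. Nr4a1, an early nuclear receptor of that response, stood at 226 CPM in WT members and 836 CPM in VISTA-KO members, a ratio of 3.69 (3.42 to 3.99). In CD103-negative cells it stood at 227 and 878 CPM. Nr4a3, of the same family, stood at 38.4 and 119 CPM. Of 13 genes on the list of this response, 5 were higher and none lower, with a median log2 ratio of 0.54 against -0.01 over all genes, of which 1.77% were higher. Besides these, they were Nfkbid, Irf4 and Tagap. Of 9 AP-1 genes 3 were higher, among them Junb at 1899 and 3882 CPM, with a median of 0.49.

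Genes tied to TGF-beta and to regulatory T cell function were also among the higher ones. Tgif1, a repressor of TGF-beta targets, stood at 78.8 and 214 CPM, a ratio of 2.71 (2.37 to 3.11). Lrrc32, the docking protein GARP that presents latent TGF-beta, stood at 31.8 and 73.5 CPM. Tgfbr1, a TGF-beta receptor chain, stood at 20.6 and 34.0 CPM. With it, 3 of 17 pathway genes were higher and none lower, where 1.77% of all genes were higher. The list had a median log2 ratio of 0.165, against -0.01 over all genes. Tgfbr1 stayed past the limit in only 6 of 11 alternatives, while Tgif1 and Lrrc32 did in 11. Areg stood at 252 and 603 CPM, a ratio of 2.39 (2.21 to 2.59), and in CD103-negative cells at 124.8 and 557 CPM. Its log2 ratio of 1.24 was 0.48 after thinning and 0.55 without cells marked as doublets by the planned rule, neither of them past the limit, and 0.93 under a narrower rule that was past it (both rules are given at the end). Il1rl1, Gzmb and Areg were the 3 higher of 15 genes of tissue and effector regulatory T cells, against 1.77% of all genes. Klrg1 stood at 192 and 251 CPM and was not past the limit.

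Of 12 chemokine receptors 4 were higher and none lower, where 1.77% of all genes were higher. Ccr4, the receptor for CCL17 and CCL22, stood at 29.98 and 79.6 CPM, a ratio of 2.66 (2.12 to 3.34). The others were Ccr3 at 18.6 and 47.3 CPM, Ccr10 at 9.40 and 26.5 CPM and Cxcr4 at 61.0 and 121 CPM. Ccr3 and Ccr10 were not past the limit when the members were chosen after thinning. Of 7 genes of tissue egress 3 were higher, Klf2 at 385 and 690 CPM, S1pr1, the receptor that guides exit from tissue, at 54.6 and 91.9 CPM, and Klf3 at 37.9 and 71.5 CPM. Rgcc, a cell cycle regulator, stood at 55.7 and 160 CPM and Cpm, the enzyme carboxypeptidase M, at 43.5 and 118 CPM. Il17a, the type 17 cytokine, stood at 8.13 and 35.3 CPM but came from 3 WT and 12 VISTA-KO members, so it was a property of few cells.

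Among the lower genes was Pdcd1, at 319 and 160 CPM, a ratio of 0.50 (0.450 to 0.555), with 414 and 255 CPM in CD103-negative cells. Itga1, a collagen-binding integrin chain, stood at 22.9 and 9.39 CPM, and stayed past the limit in only 6 of 11 alternatives. The 8 lowest ratios came from genes held by few cells and from genes spread over many. Fscn1, an actin-bundling protein of mature dendritic cells, had 193 UMIs in 5 WT members and none in VISTA-KO, which makes it at least 50.5-fold lower against a floor of 3 UMIs over the group. Of these UMIs 133 came from 1 cell, and the log2 ratio of -3.43 was 0.0 after thinning or without marked doublets and -0.20 under the narrower doublet rule. Klk1, on the list for plasmacytoid dendritic cells, stood at 44.5 and 5.18 CPM, from 7 and 2 cells, and its log2 ratio of -2.28 was 0.0 under either doublet rule. Gm42031, a predicted gene, stood at 86.4 and 13.9 CPM, spread over 177 and 35 members, and Tff1, a secreted trefoil peptide, at 93.8 and 18.8 CPM. Ckb, Nrn1, C2cd4b and Napsa completed the 8 lowest, with ratios of 0.297, 0.285, 0.279 and 0.314. Without cells marked by the planned doublet rule the log2 ratio of Napsa turned from -1.41 to 0.63, and that of Ckb, with 71 of its 253 WT UMIs in 1 cell, moved from -1.52 to -0.84.

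**Figure D3:**
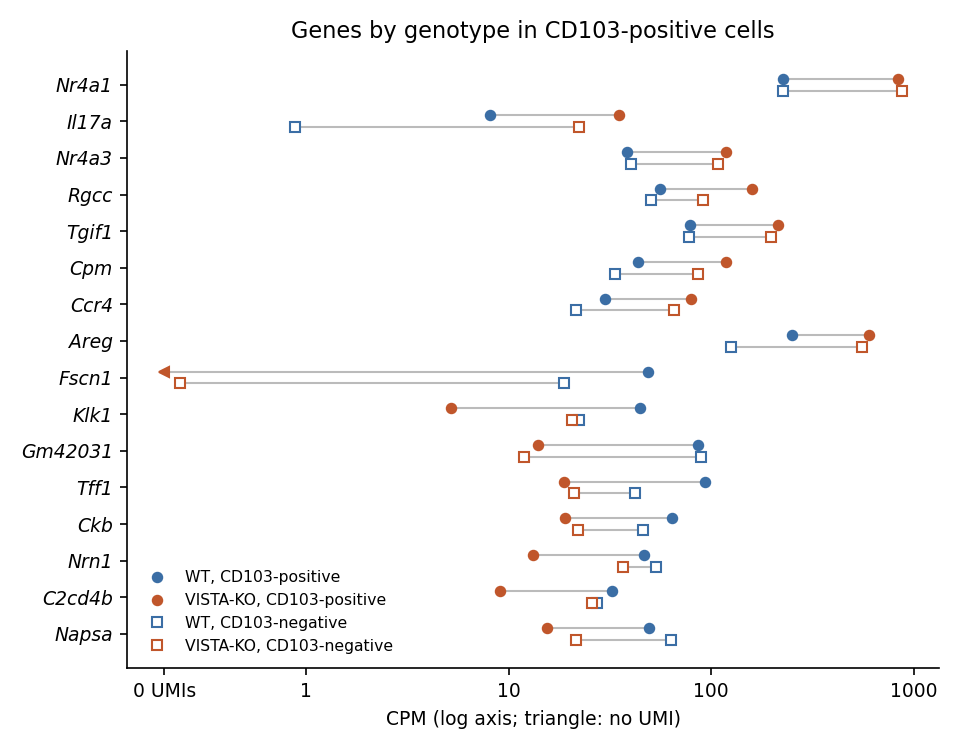
CPM on a log axis of the 8 highest and 8 lowest genes by genotype in CD103-positive cells (filled circles), with non-dividing CD103-negative cells beside them (open squares), WT in blue and VISTA-KO in orange, and a triangle where no UMI was found. Nr4a1 moves alike in both kinds of cell, from 226 to 836 CPM and from 227 to 878 CPM, while Klk1 and C2cd4b are lower in CD103-positive cells with little difference in CD103-negative cells.

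The markers of other cells also differed between the genotypes. Of all 6264 genes, 1.77% were at least 1.5-fold lower in VISTA-KO members. Of 9 measured CD8 T cell genes 7 were lower in VISTA-KO members, and the list summed to 7450 CPM in WT members but to 4671 CPM in VISTA-KO members, with Ccl5 the most abundant at 4521 and 2953 CPM. Each of the 5 measured conventional dendritic cell genes was lower, with sums of 2339 and 1285 CPM. Of 8 measured plasmacytoid dendritic cell genes 5 were lower, with sums of 768 and 574 CPM, and Bst2, the most abundant, was level at 307 and 307 CPM. Each of the 3 measured NK cell genes was lower, with sums of 442 and 184 CPM, and Ncr1 and Klra4 had no UMI. The macrophage list summed to 375 and 355 CPM, with Ctss the most abundant at 320 and 322 CPM.

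The B cell list went the other way, at 345 and 475 CPM, of which Ighm was 325 and 437 CPM, while Pax5 had no UMI. The gamma-delta and type 17 list summed to 24.9 and 71.5 CPM, with Il17a the most abundant. The melanoma list summed to 14.2 and 9.39 CPM, with Dct the most abundant at 4.57 and 2.27 CPM and Tyr and Sox10 at no UMI. The part of these cells' RNA in the differences by genotype was not tested. When cells with signs of a second cell were left out by a rule added after the data were seen, described at the end, 215 genes were higher and 150 lower, and these held 78 and 40 of the genes above. The planned doublet rule gave 494 and 478 genes, with 85 and 38 of those above, and members chosen after thinning gave 484 and 597, with 82 and 70. These counts rest on fewer members. In WT and VISTA-KO 221 and 324 were left by the added rule, 122 and 164 by the planned rule and 93 and 134 by thinning. The part of counting error in the larger gene counts was not tested.

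**Figure D4:**
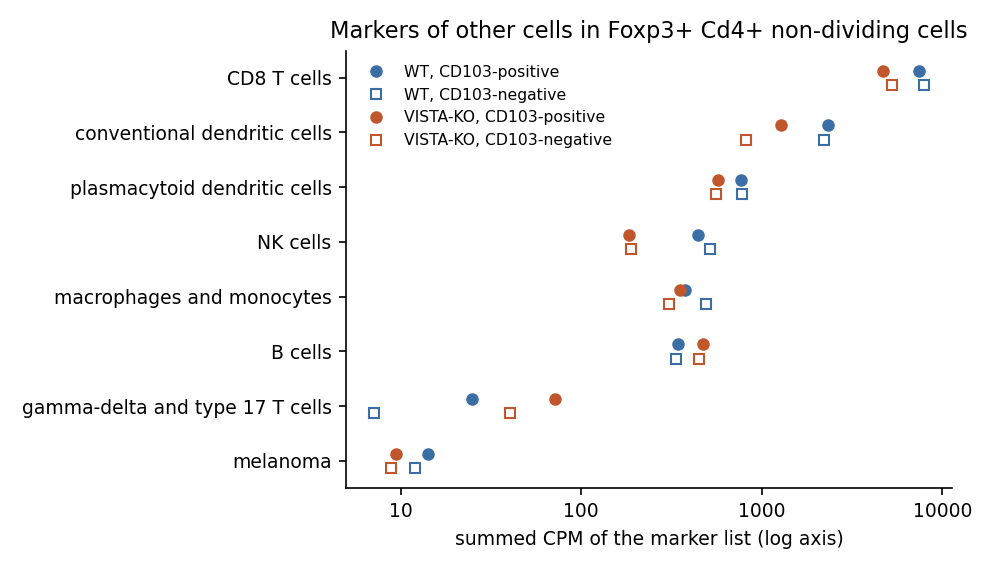
Summed CPM on a log axis of 8 lists of markers of other cells, in CD103-positive cells (filled circles) and non-dividing CD103-negative cells (open squares), WT in blue and VISTA-KO in orange. The CD8, dendritic and NK lists are lower in VISTA-KO in both kinds of cell, and the dendritic list of VISTA-KO is higher in CD103-positive cells (1285 CPM) than in CD103-negative cells (816 CPM).

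A small set of 13 genes differed by genotype in the members and lay the opposite way in CD103-negative cells, though some of the latter ratios were close to 1. How many of all genes lay opposite ways is not given here, so this count has no background. Xcl1, a chemokine of CD8 T and NK cells, stood at 88.4 and 6.15 CPM in members and at 51.0 and 81.0 CPM in CD103-negative cells, but 5 cells carried 77.3% of its WT member UMIs. Fabp5, a fatty acid-binding protein, stood at 101 and 43.4 CPM against 52.7 and 52.9 CPM, with 125 of its 398 WT member UMIs in 1 cell. Serpinb1a, a protease inhibitor, stood at 17.3 and 31.4 CPM against 16.0 and 11.2 CPM, and stayed past the limit in 7 of 11 alternatives. Tnfsf9, the ligand of 4-1BB, stood at 20.6 and 36.9 CPM against 22.4 and 22.2 CPM, but 1 VISTA-KO member carried 43 of its 114 UMIs there and it stayed past the limit in 5 of 11 alternatives. The other members of the set were lower in VISTA-KO members, namely Pes1, Bet1, Tspan3, Tspyl2, Ddx49, Tbc1d4, Srm, Marcksl1 and Mthfd1l, with ratios from 0.531 (Bet1) to 0.637 (Marcksl1). Srm, Marcksl1 and Mthfd1l stayed past the limit in 5 of 11 alternatives, and Tbc1d4 and Tspyl2 in 6.

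T cell receptors were not used to choose the members. A clonotype, the V gene and junction sequence of the most abundant productive alpha chain and beta chain of a cell, was known for 234 of 415 WT members (56.4%) and 313 of 437 VISTA-KO members (71.6%), close to the 57.5% and 73.8% in CD103-negative cells. The members held many small clonotypes, 211 in WT and 301 in VISTA-KO, and the largest had 4 and 2 member cells. The largest in CD103-negative cells had 21 and 6. For each library 3 of the largest clonotypes are shown to make this diversity visible, chosen by the order of their names where several had the same size, as the nucleotides of the junction from the codon of its first cysteine to that of its last phenylalanine.
WT 1, alpha TRAV10 TRAJ30: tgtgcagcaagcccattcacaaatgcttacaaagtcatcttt
WT 1, beta TRBV20 TRBJ1-4: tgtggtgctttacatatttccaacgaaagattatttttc
WT 2, alpha TRAV12-2 TRAJ30: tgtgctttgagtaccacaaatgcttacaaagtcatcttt
WT 2, beta TRBV5 TRBJ1-2: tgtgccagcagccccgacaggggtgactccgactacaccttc
WT 3, alpha TRAV14D-1 TRAJ26: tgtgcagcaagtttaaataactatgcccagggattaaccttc
WT 3, beta TRBV13-3 TRBJ2-2: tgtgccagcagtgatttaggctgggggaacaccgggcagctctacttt
VISTA-KO 1, alpha TRAV13N-1 TRAJ32: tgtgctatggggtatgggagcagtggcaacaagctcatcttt
VISTA-KO 1, beta TRBV5 TRBJ1-3: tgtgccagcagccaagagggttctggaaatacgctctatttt
VISTA-KO 2, alpha TRAV16 TRAJ52: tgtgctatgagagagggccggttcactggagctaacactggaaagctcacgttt
VISTA-KO 2, beta TRBV5 TRBJ2-1: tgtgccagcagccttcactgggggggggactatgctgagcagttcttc
VISTA-KO 3, alpha TRAV3D-3 TRAJ23: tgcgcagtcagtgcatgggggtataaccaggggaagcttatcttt
VISTA-KO 3, beta TRBV12-1 TRBJ1-3: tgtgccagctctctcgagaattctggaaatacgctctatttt

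The first WT clonotype had 4 CD103-positive cells, 1 CD103-negative cell, 1 dividing cell and 1 cell outside the cells with Foxp3 and Cd4 UMIs, and its Itgae counts ran from 0 to 7. The third WT clonotype had 3 CD103-positive cells and 5 cells outside. The first VISTA-KO clonotype had 2 CD103-positive cells, 1 CD103-negative cell, 1 dividing cell and 1 outside. The second clonotype of each library was seen only in members. No clonotype, and none of the 207 and 309 beta chains, was found in members of both libraries.

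Of the WT members with a clonotype, 31.6% (25.7 to 38.0) belonged to one with at least 2 cells among those with Foxp3 and Cd4 UMIs, against 42.9% (38.0 to 47.9) of CD103-negative cells, and the intervals met at their ends. In VISTA-KO the shares were 16.9% (13.0 to 21.6) and 18.9% (15.5 to 22.6). Both kinds of cell had a lower value in the VISTA-KO library than in the WT library, which also differed in the share of cells with a known clonotype. Cells of 1 clonotype are not independent, so these intervals are too narrow, and without marked doublets the value of VISTA-KO members was 8.46%. Dividing cells stood at 34.6% (26.6 to 43.2) and 21.7% (14.7 to 30.1).

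**Figure D5:**
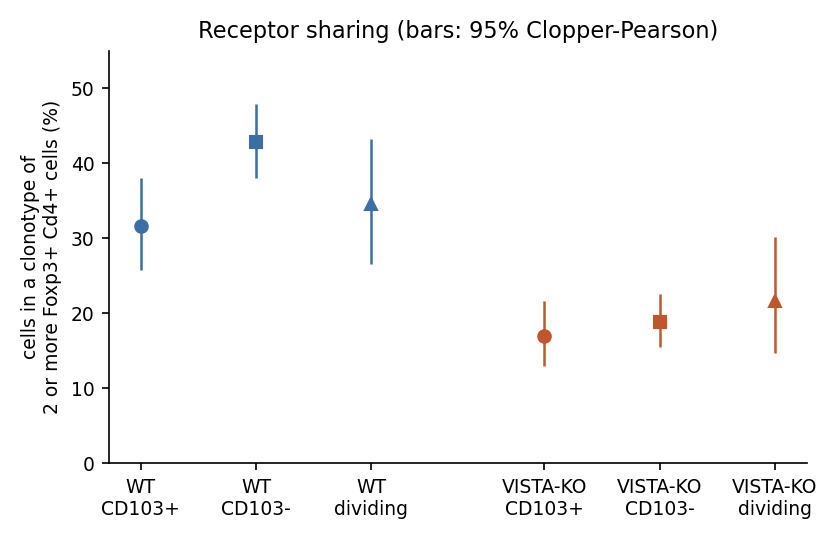
Percent of cells with a known clonotype that belonged to a clonotype of at least 2 cells with Foxp3 and Cd4 UMIs, for CD103-positive, non-dividing CD103-negative and dividing cells of WT (blue) and VISTA-KO (orange), with 95% Clopper-Pearson intervals. The VISTA-KO values lie between 16.9% and 21.7% and the WT values between 31.6% and 42.9%.

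In WT 33 clonotypes occurred in both CD103-positive and CD103-negative cells, which was 15.6% of the clonotypes of the former and 11.5% of those of the latter. In VISTA-KO the number was 26, which was 8.64% and 5.79%. Of the 59 non-dividing WT clonotypes with several cells, 33 were mixed, 6 held only CD103-positive cells and 20 only CD103-negative cells, and in VISTA-KO, of 55 such clonotypes, 26, 10 and 19 were so. The partner cells of a CD103-positive cell within its clonotype were CD103-positive in 60 of 204 pairs (29.4%) in WT, where 27.2% of the cells in such clonotypes were, and in 24 of 66 pairs (36.4%) in VISTA-KO, where 36.4% were. Without marked doublets the latter became 8 of 12 pairs (66.7%), where 31.2% of the cells were. A missed Itgae UMI also makes a clonotype look mixed, and its share in this was not tested.

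Sharing with dividing regulatory T cells covered 23 clonotypes in WT, 10.9% of the members' clonotypes and 19.0% of those of dividing cells, and 9 in VISTA-KO, 2.99% and 7.90%. Sharing with Cd4 cells without Foxp3 UMIs covered 7 clonotypes in each library, 3.32% and 2.33% of the members' clonotypes and 1.08% and 0.553% of the other cells' clonotypes. With Cd8 cells it covered 9 clonotypes in WT, 4.27% of the members' and 0.856% of the Cd8 cells' clonotypes, and 1 in VISTA-KO, 0.332% and 0.0634%. At least 2 productive beta chains were recorded in 11.6% of WT and 12.6% of VISTA-KO members, against 7.74% and 10.4% of CD103-negative cells, and at least 2 alpha chains in 14.2% and 18.3%.

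The use of V segments had non-overlapping counting intervals between the kinds of cell for 3 segments, picked out after all alpha and beta segments of both libraries were seen. These shares count cells, and cells of 1 clonotype are not independent, so the intervals are too narrow. In WT, TRAV6 was used by 10.4% (6.91 to 14.9) of the members with an alpha chain and by 20.1% (16.5 to 24.2) of CD103-negative cells, and in VISTA-KO by 14.3% and 13.4%. The number of clonotypes behind TRAV6 is not given here. TRBV12-1 was used by 10.6% (7.42 to 14.4) of the VISTA-KO members with a beta chain and by 3.09% (1.78 to 4.97) of CD103-negative cells, and its 34 member cells belonged to 32 clonotypes. TRBV1 was used by 2.17% (0.878 to 4.43) and 8.11% (5.91 to 10.8). In WT the shares were 2.54% and 2.60% for TRBV12-1 and 5.51% and 5.2% for TRBV1. Overlapping intervals do not show that the other segments were used alike, and in WT TRBV15, for example, was used by 5.51% of members and 1.89% of CD103-negative cells.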

How the data were processed

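The authors deposited filtered gene-by-cell matrices of UMI counts from Cell Ranger (GRCm38, mm10) and T cell receptor annotations, 1 pooled library of each per genotype. The study's methods name a V(D)J kit, while the labels describe another kit. The samples were grouped by their labels. Counts were summed per library and group and scaled to CPM over 32285 genes, with 3935613 and 3089798 UMIs in the members. Log2 ratios followed addition of 5 CPM, for genes with at least 20 CPM in any sum. The 5 rule genes and receptor segments were left out of counts and ranks. Intervals were exact Poisson for CPM, exact conditional for ratios and Clopper-Pearson for shares. UMIs and cells of 1 pool are not replicates. No doublet caller was run, and doublets were kept. Named genes were the highest and lowest of those past the limit against both other groups, the 8 highest and 8 lowest by genotype, those of opposite direction, members of 26 lists, and 6 genes set by name. The members and lists were chosen with earlier results of these data known. Coordinates are from RefSeq (GRCm38.p6). Some genes are not reported here. The fold rule was also run on simulated data, and the outcome is not given here. Python 3.11.15, numpy 2.4.6, scipy 1.17.1 and pandas 2.3.3 were used.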

Additional observations from a re-analysis of the deposited data

Results flagged for a closer look

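Between CD103-positive and non-dividing CD103-negative cells, 4 genes were past 1.5-fold in opposite directions in the libraries, and this difference between the libraries was not tested. Cd209a had a log2 ratio of -1.36 in WT and 1.01 in VISTA-KO, with 12.7 against 40.3 CPM and 9.39 against 2.14 CPM. In VISTA-KO members 28 of its 29 UMIs came from 1 cell, and in WT CD103-negative cells 121 of 227 did. Clec10a had -1.12 and 0.64, with 8.89 against 25.2 CPM and 6.47 against 2.38 CPM. Both are C-type lectins of dendritic cells and macrophages. Klk1 had 0.86 in WT and -1.32 in VISTA-KO, and Xcl1 had 0.74 and -2.95. In VISTA-KO CD103-negative cells 1 cell carried 80 of 86 Klk1 UMIs and 1 cell 168 of 340 Xcl1 UMIs.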

How the results depend on the processing

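Counts of genes higher and lower depended on the processing. Against all other cells (15 and 126), a mean of each cell's own CPM gave 8 and 45, a minimum of 50 CPM 8 and 57, no minimum 244 lower, members chosen after thinning 27 and 44, and cells left out as doublets (at least 2 beta chains, 2 Cd8 UMIs or 3 UMIs of other cells' markers) 30 higher. Of the 15 genes 7 remained with the cells' own CPM, 8 with the minimum of 50 CPM, 5 after thinning and 7 without doublets. The narrower doublet rule below gave 15 higher, 5 of them shared. Against CD103-negative cells (8 and 1), the cells' own CPM gave 11 lower, a pseudocount of 1 CPM 5 lower, a minimum of 50 CPM 2 higher, no minimum 16 and 8, at least 2 Itgae UMIs 16 and 11, thinning 30 and 23, leaving out doublets 32 and 65, comparison cells weighted to the members' depth 2 lower, a narrower doublet rule (more Cd8 than Cd4 UMIs, Ighm left out) 13 and 18, and 1.25-fold 41 and 28. The last 2 were chosen after seeing the data. By genotype (111 and 111), a minimum of 50 CPM gave 73 and 44, no minimum 182 and 278, at least 2 Itgae UMIs 175 lower, thinning 484 and 597, leaving out doublets 494 and 478, and the narrower rule 215 higher. Only 82 and 70 of the genotype genes remained after thinning and 85 and 38 without doublets. These alternatives held fewer members, 93 WT and 134 VISTA-KO after thinning and 122 and 164 without doublets. The part of counting error in their larger counts was not tested.

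Over 12 alternatives to the comparison with CD103-negative cells, Klrg1 and Ltb4r1 stayed past the limit in 11 each, Anxa1, Il1rl1, Il2ra and Lilrb4a in 10 each, Ifitm1 in 7, and Actn2 and Cxcl2 in 6 each. The minimum of 50 CPM left out Ltb4r1, Anxa1, Il1rl1, Ifitm1, Actn2 and Cxcl2 without a change in ratio. The log2 ratio of Cxcl2 turned to -0.775 in WT after thinning and to -0.424 in VISTA-KO without doublets, and that of Napsa by genotype to 0.626 without doublets. The cause was not tested. The doublet rule marked 70.6% of WT and 62.5% of VISTA-KO members. Ighm had at least 3 UMIs in 44.8% and 45.1% of the members. At least 2 Cd8 UMIs were held by 36.4% and 17.4% and at least 2 beta chains by 11.6% and 12.6%. These signs can fall on the same cell. The narrower rule marked 46.8% and 25.9% of the members. Of CD103-negative cells the rules marked 60.5% and 57.9%, and 37.7% and 25.1%.

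The CD103-positive share (27.2% and 34.4%) was 37.3% and 39.8% of non-dividing cells, 16.8% and 21.5% with at least 2 Itgae UMIs and 19.4% and 25.2% after thinning. Without doublets, 37.8% of WT CD103-negative cells, 8.46% of VISTA-KO members and 11.6% of VISTA-KO CD103-negative cells were in clonotypes with at least 2 cells, and 66.7% of VISTA-KO partners were CD103-positive. Leaving out the largest member clonotype, or cells with under 1000 genes or over 10% mitochondrial UMIs, moved no count beyond 1.5 times. No paired analysis was possible because there was 1 library per genotype.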

Other observations

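Other genes past 1.25-fold in both libraries but not past 1.5-fold in both were picked after their values were seen. Vim, the intermediate filament vimentin, was abundant and stood at 2976 CPM in WT members against 2359 CPM in CD103-negative cells, and at 2779 against 2076 CPM in VISTA-KO. Sdc4, a cell-surface proteoglycan, stood at 88.9 against 69.6 CPM and 68.6 against 53.4 CPM. Socs2, a feedback inhibitor of cytokine signalling, stood at 41.9 against 28.9 CPM and 75.7 against 48.1 CPM. Lower in members were Myc, the growth factor-induced transcription factor, at 47.8 against 68.2 CPM and 37.9 against 66.7 CPM, and Plac8 at 128 against 175 CPM and 70.6 against 98.8 CPM. Penk, which encodes proenkephalin, stood at 90.7 against 119.8 CPM in WT and 60.5 against 220.3 CPM in VISTA-KO, and Ccl1, a ligand of CCR8, at 7.37 against 12.6 CPM and 1.94 against 27.4 CPM. These levels describe few cells. Ccl1 came from 4 WT and 3 VISTA-KO members and from 10 CD103-negative cells in each library. Of the Penk UMIs, 5 cells carried 58.0% and 64.7% in members and 60.6% and 54.2% in CD103-negative cells.

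Of 16 interferon-stimulated genes measured by CD103, 9 lay higher and none lower in members of both libraries, although none passed 1.5-fold. Their median log2 ratios were 0.12 in WT and 0.21 in VISTA-KO, against 0.01 over all genes. Isg15, a ubiquitin-like protein of this response, stood at 175 against 124 CPM in WT, with 262 against 223 CPM in VISTA-KO. Of 11 heat shock genes none lay higher and 6 lower in both, with medians of -0.05 and -0.18. How many of all genes lay the same way in both libraries is not given here, so neither same-direction count has a background. Hspa1a, an inducible chaperone, stood at 146 against 211 CPM and 109 against 140 CPM. By genotype, where 1.77% of all genes were past 1.5-fold in each direction, 3 of 15 interferon-stimulated genes were past 1.5-fold upward in VISTA-KO members, among them Igtp at 232 and 417 CPM and Rsad2 at 12.2 and 23.6 CPM, and 1 of 11 heat shock genes, Hsph1, was past it downward at 98.3 and 61.8 CPM. Of 6 cytokines, Il17a, Tnf and Lta were past it upward, Tnf at 34.3 and 56.3 CPM. Rsad2 was not past the limit after thinning and lay under a minimum of 50 CPM, Igtp under the narrower doublet rule, Tnf with the cells' own CPM or under the narrower doublet rule, and Hsph1 in 4 of 11 alternatives.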
